A study of Spodoptera exigua with 2 samples.

Results

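The small peptidoglycan recognition proteins (PGRPs) of the beet armyworm, Spodoptera exigua, were followed through 4 loci, SPEXI_LOCUS6460, SPEXI_LOCUS12275, SPEXI_LOCUS12278 and SPEXI_LOCUS3847. The study's Toll pathway diagram puts these loci together under small PGRPs, and they are 4 of the 13002 genes in the count files. The diagram does not pair each locus with a protein name, so the loci are called by their numbers. Closely related PGRP copies can share reads, and how such reads were assigned was not tested.

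The data came from 2 single-cell RNA libraries of hemocytes, the circulating immune cells, of newly molted fifth-instar larvae. The challenged larvae had each received 140000 heat-killed E. coli TOP10 cells, and the naive larvae had received PBS. Hemolymph was taken 8 h after injection in both groups, and the number of larvae behind each library was not given in the sources used here. With 1 library per group no test between the groups was possible, and all intervals are 95% intervals of counting error alone.

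PGRPs bind peptidoglycan, the mesh polymer of bacterial cell walls. In Drosophila, some small secreted PGRPs act upstream of the Toll pathway, while PGRP-LB is an amidase that cuts peptidoglycan and damps the IMD pathway. In the silkworm, a hemolymph PGRP is also known to start the prophenoloxidase (PPO) cascade that leads to melanin.

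After removal of cells with under 200 genes, 12524 challenged and 14840 naive cells remained, holding 94496277 and 81236890 unique molecular identifiers (UMIs, each counting a captured mRNA molecule). The median depth was 5282 UMIs per challenged cell and 3347 UMIs per naive cell, and the libraries shared 44 cell barcodes. Hemocytin, a hemocyte adhesion protein, had a UMI in 63.0% of challenged and 63.0% of naive cells. A cluster of 12 challenged and 11 naive cells was led by muscle genes such as troponin T, and none of the 4 loci had a UMI in it, which allows a share of up to 25.0% of those challenged and 27.3% of those naive cells.

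SPEXI_LOCUS6460, SPEXI_LOCUS12275 and SPEXI_LOCUS12278 were higher in the challenged than in the naive library, by 10.0-fold, 4.53-fold and 3.55-fold, and SPEXI_LOCUS3847 was scarce in both. Levels are UMIs summed over cells and divided by the UMIs of the library, in counts per 1000000 (CPM). Because the libraries read the 3′ ends of transcripts, the levels were not divided by gene length.

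SPEXI_LOCUS6460 had 6209 UMIs in challenged cells, or 65.7 CPM (64.1 to 67.4), against 532 UMIs in naive cells, or 6.55 CPM (6.004 to 7.13), a ratio of 10.0 (9.18 to 10.98). SPEXI_LOCUS12275 had 1935 UMIs in challenged cells, or 20.5 CPM (19.6 to 21.4), against 367 UMIs in naive cells, or 4.52 CPM (4.07 to 5.00), a ratio of 4.53 (4.05 to 5.08). SPEXI_LOCUS12278 had 681 UMIs in challenged cells, or 7.21 CPM, against 165 UMIs in naive cells, or 2.03 CPM, a ratio of 3.55 (2.99 to 4.23). For these loci the level intervals of the libraries did not overlap. SPEXI_LOCUS3847 had only 123 UMIs in challenged cells (1.30 CPM) and 84 UMIs in naive cells (1.03 CPM), and the interval of its ratio, 1.26 (0.946 to 1.68), included equal levels.

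The order of the loci was the same in both libraries, with SPEXI_LOCUS6460 highest and SPEXI_LOCUS3847 lowest. Summed over the 4 loci the level was 94.7 CPM in challenged cells and 14.1 CPM in naive cells. SPEXI_LOCUS6460 supplied 69.4% of that sum in challenged cells and 46.3% in naive cells, so the make-up of the small PGRP transcripts differed as well as their amount.

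Of the 10041 genes with at least 30 UMIs, 249 (2.48%) were more than 2-fold higher in the challenged library and 1096 (10.9%) were more than 2-fold lower, with a median ratio of 0.960. Among the small PGRPs, 3 of 4 were past 2-fold in the higher direction and 0 of 4 in the lower direction. Only 23 of the 10041 genes had a higher ratio than SPEXI_LOCUS6460, 64 had a higher ratio than SPEXI_LOCUS12275 and 80 had a higher ratio than SPEXI_LOCUS12278. By contrast, 1453 genes had a higher ratio than SPEXI_LOCUS3847.

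**Figure D1:**
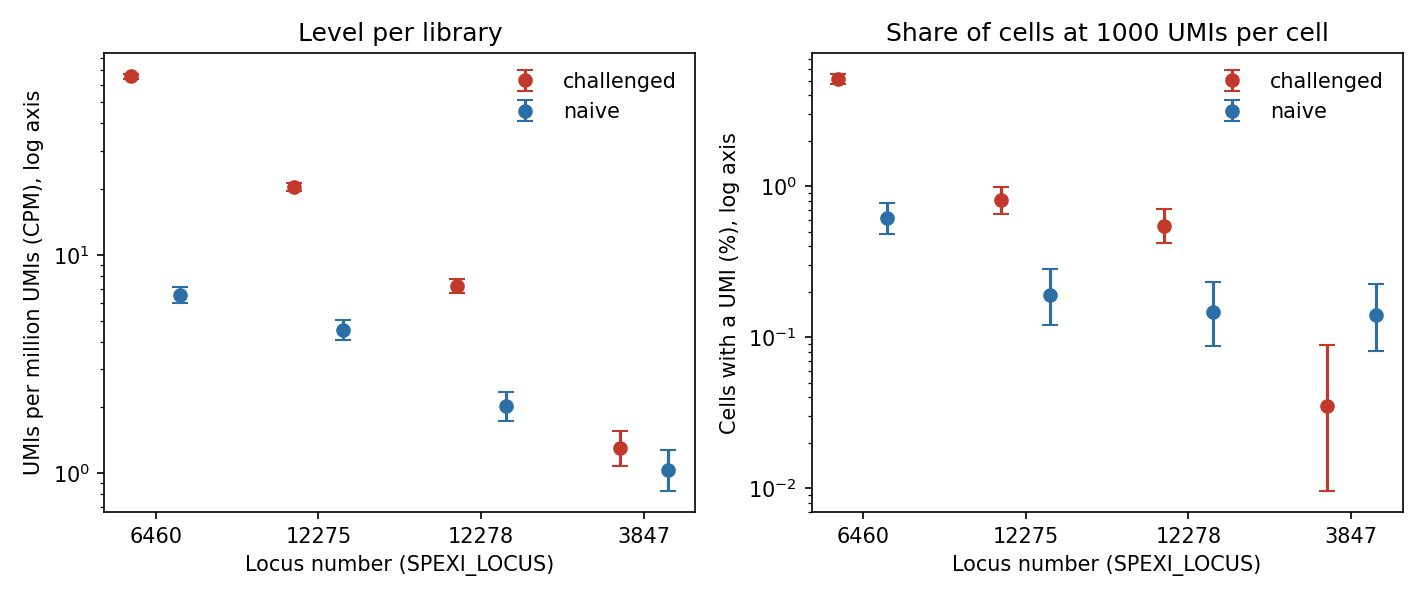
Level of each small PGRP locus in CPM (left, log axis) and share of cells with at least 1 UMI after thinning to 1000 UMIs per cell (right, log axis), with challenged in red left of naive in blue and bars for the 95% counting intervals. The challenged level of SPEXI_LOCUS6460 stands at 65.7 CPM against 6.55 CPM in naive cells, while the intervals of SPEXI_LOCUS3847 overlap in level.

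Positive cells, that is cells with at least 1 UMI, were more frequent in the challenged library. SPEXI_LOCUS6460 was found in 2306 challenged cells (18.4%, 17.7 to 19.1%) and in 347 naive cells (2.34%, 2.10 to 2.59%). SPEXI_LOCUS12275 was found in 515 challenged (4.11%) and 115 naive cells (0.775%), and SPEXI_LOCUS12278 in 451 challenged (3.60%) and 134 naive cells (0.903%). At least 1 of the 4 loci was seen in 22.7% of challenged cells and in 4.03% of naive cells.

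Because challenged cells had more UMIs per cell, shares were also taken after thinning every cell to 1000 UMIs, which left out 1066 challenged and 2683 naive cells with fewer UMIs. SPEXI_LOCUS6460 was then found in 5.14% of challenged cells (4.74 to 5.56%) and in 0.617% of naive cells (0.486 to 0.773%), a ratio of shares of 8.33. The ratio of shares was 4.29 for SPEXI_LOCUS12275, at 0.812% of challenged and 0.189% of naive cells. It was 3.71 for SPEXI_LOCUS12278, at 0.550% of challenged and 0.148% of naive cells. At this depth most positive cells held 1 UMI, so a higher level per cell and more expressing cells cannot be told apart.

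SPEXI_LOCUS3847 was too sparse to order the libraries. After thinning, it was found in 4 challenged and 17 naive cells, which goes against its level at full depth, and no direction is drawn from either value. At full depth 108 of its 114 challenged and 76 of its 80 naive positive cells held 1 UMI.

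The loci differed in how many UMIs a positive cell held. At full depth a positive cell held 2.69 UMIs of SPEXI_LOCUS6460 on average in the challenged library (at most 28) and 1.53 in the naive library (at most 7). SPEXI_LOCUS12275 had the highest means, 3.76 in challenged cells (at most 36) and 3.19 in naive cells (at most 25), but its positive cells were deeper. Their median depth was 22750 UMIs in challenged and 14678 UMIs in naive cells, against 9517.5 and 9950 UMIs for SPEXI_LOCUS6460. Relative to depth, the median positive challenged cell had 128 CPM of SPEXI_LOCUS12275 and 204 CPM of SPEXI_LOCUS6460. In naive cells these values were 178 and 148 CPM. At 1000 UMIs per cell the challenged means were 1.31 and 1.23. SPEXI_LOCUS12278 stayed low, with means of 1.51 in challenged and 1.23 in naive cells and at most 6 UMIs in a cell of either library.

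A small set of cells held much of SPEXI_LOCUS12275. The 95 challenged cells with over 5 UMIs, 18.4% of its positive cells, held 58.2% of its UMIs, and the 18 such naive cells, 15.7%, held 51.0%. UMIs grouped in few cells in this way make the true error of its level wider than the printed interval. Without the cell with the most UMIs in each library, its log2 ratio was 2.25, against 2.18 with all cells.

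**Figure D2:**
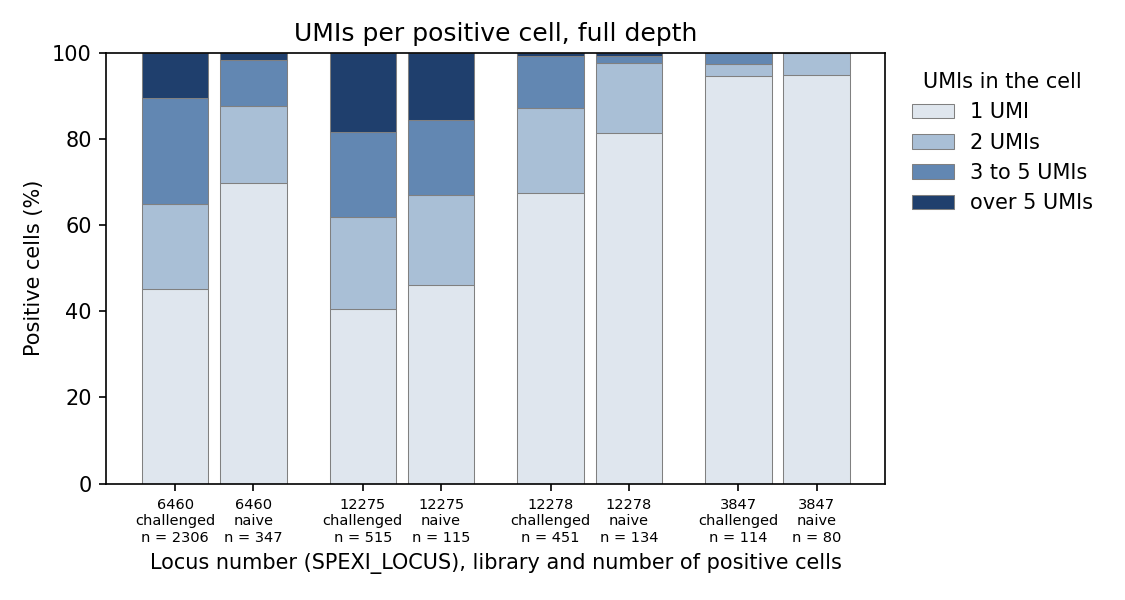
Share of positive cells (%) with 1, 2, 3 to 5 or over 5 UMIs of each small PGRP locus at full depth, with challenged left of naive for each locus and the number of positive cells under each bar. SPEXI_LOCUS12275 has cells with over 5 UMIs in both libraries (18.4% of its challenged and 15.7% of its naive positive cells), while 108 of 114 challenged and 76 of 80 naive positive cells of SPEXI_LOCUS3847 hold 1 UMI.

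SPEXI_LOCUS12275 was highest in RNA-rich cells. In cells of 20000 or more UMIs it reached 50.1 CPM and 30.2% positive cells in the challenged library and 14.0 CPM and 6.58% in the naive library. In challenged cells of 5000 to 10000 UMIs it was at 5.74 CPM, and in naive cells of that depth at 1.16 CPM. The shallowest cells, under 1000 UMIs, did not follow this order, at 26.7 CPM in challenged cells (21 UMIs) and 4.60 CPM in naive cells (9 UMIs). SPEXI_LOCUS6460 was highest per UMI in challenged cells of middle depth, at 84.0 CPM between 5000 and 10000 UMIs and 80.1 CPM between 10000 and 20000 UMIs, against 41.0 CPM in the deepest challenged cells.

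To see which hemocytes held each locus, a new clustering was made over the challenged and naive cells. The small PGRP loci and 3 loci of large PGRPs, PGRP-LB among them, were left out of the genes that shape the clusters. The 32 clusters are numbered here only for reference and carry no cell type name. They are described by the genes that the study used to mark its clusters, as folds over the pooled cells.

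SPEXI_LOCUS6460 was spread over many kinds of challenged hemocyte. The largest share of its challenged UMIs, 28.9%, was in cluster 8, where hemicentin 1-like, an extracellular matrix protein, was 11.1-fold higher than in the pooled cells. There it had 232.9 CPM and 53.9% positive cells among 757 challenged cells, against 7.57 CPM and 3.54% among 536 naive cells, a ratio of 30.8 (21.7 to 45.1). Cluster 7, with the matrix protein SPARC (2.78-fold), hemocytin (3.37-fold) and the antimicrobial peptide cecropin B (3.19-fold), held 20.7% of the challenged UMIs, at 114 CPM in challenged cells against 1.66 CPM, or 2 UMIs, in its 162 naive cells, a ratio of 68.9 (19.03 to 569.5). Troponin I, a muscle gene, was 5.88-fold higher in cluster 8, where troponin T was at 0.0308-fold, and the part of muscle RNA in that cluster was not tested.

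Cluster 13, with cecropin B at 4.67-fold, had 639 challenged cells and no naive cell. Cecropin B was itself 7.12-fold higher in the challenged library. Its folds over the pooled cells in clusters 7 and 13, made mostly or only of challenged cells, therefore do not separate cluster from library. SPEXI_LOCUS6460 had a UMI in 58.4% of its cells, at 202 CPM, and 15.9% of the challenged UMIs lay there. A cluster made of cells of 1 library cannot be told apart from a feature of that library. In cluster 16, where the cathepsin-like protease procathepsin H was 6.02-fold higher, SPEXI_LOCUS6460 had 223 CPM in 420 challenged cells and 0 UMIs in 71 naive cells. This was at least 11.2-fold higher when set against 3 UMIs in those naive cells together. Scrublet called 33.8% of those naive cells as doublets, against 2.86% of the challenged cells. The cells of the libraries in this cluster may therefore not be of the same kind.

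Cells rich in the melanization enzymes PPO1 and PPO2 (cluster 5, 8.13-fold and 8.36-fold) had less of SPEXI_LOCUS6460, with 168 UMIs in 883 challenged cells and 1 UMI in 658 naive cells, a ratio of 106 (18.9 to 4230). In all, 20 clusters had at least 50 cells in each library and 10 UMIs of this locus over both libraries together. Its level was higher in the challenged cells of all 20, with 17 intervals above 1. Clusters with few naive UMIs could pass this minimum through their challenged UMIs alone, such as cluster 16 with 189 and 0. The minimum thus favours high ratios, and the count and the median are a description only. In clusters 0, 9, 10 and 23 the challenged level was only 2.30 to 5.44 CPM, under the yardstick for low levels of 11.9 CPM given further on, so these ratios are not read as expression. The lowest ratio was 1.56 in cluster 25, and the median was 7.11. Of the clusters with at least 10 UMIs in the naive library, clusters 2, 3, 4, 18, 22 and 25 had ratios of 1.56 to 3.77. Cluster 6 had 9.21 and cluster 8 had 30.8. When challenged cluster levels were weighted by the naive mixture of clusters, the log2 ratio of SPEXI_LOCUS6460 was 2.50, against 3.33 as measured.

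In the naive library the same locus had another distribution. Cluster 4 held 43.8% of its naive UMIs, cluster 18 held 14.7% and cluster 6 held 10.7%. These clusters were low in PPO1, hemocytin, SPARC and procathepsin H (each at most 0.335-fold) and were 1.44-fold to 1.64-fold higher in paired mesoderm homeobox 2A, a transcription factor that the study used for plasmatocytes. Cecropin B, which the study used for granulocytes, was 1.94-fold in cluster 4, 1.09-fold in cluster 6 and 0.553-fold in cluster 18. The homeobox fold was not particular to these clusters, being 1.64-fold in cluster 21 and 1.41-fold in cluster 22. Cluster 6 was rich in RNA, with a median of 21270.5 UMIs, as was cluster 21, with 22901 UMIs.

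**Figure D3:**
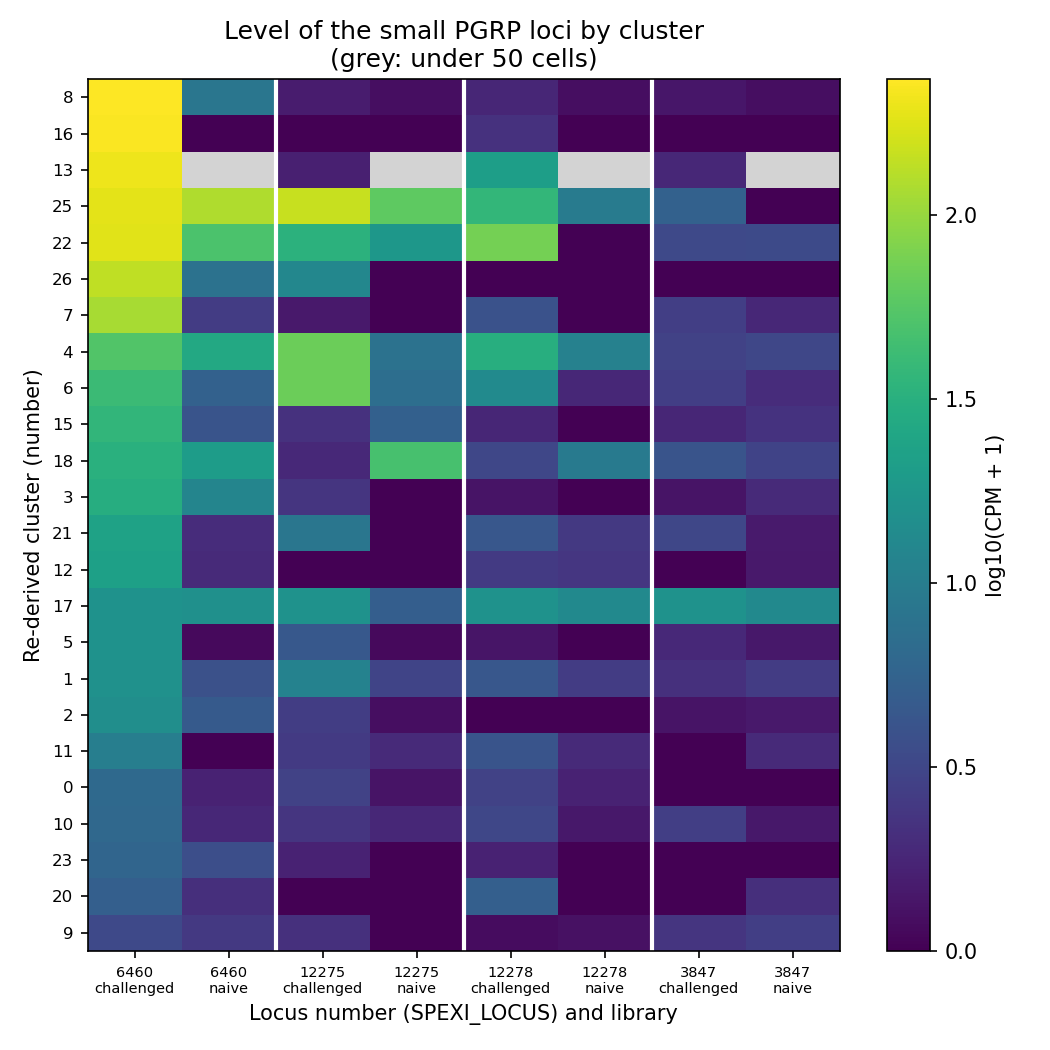
Level of the 4 small PGRP loci, as log10(CPM + 1), in the re-derived clusters with at least 50 challenged cells, ordered by the challenged level of SPEXI_LOCUS6460, with challenged left of naive for each locus and grey for under 50 cells. SPEXI_LOCUS6460 is above 100 CPM in several challenged clusters, while SPEXI_LOCUS12275 stands out in clusters 4, 6 and 25 of the challenged library and clusters 18 and 25 of the naive library.

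Most UMIs of SPEXI_LOCUS12275 lay in clusters 4, 6 and 18 in both libraries. Of its challenged UMIs, 64.1% were in cluster 6 (67.2 CPM, 39.4% positive cells) and 25.5% in cluster 4 (67.5 CPM, 19.9% positive cells). Of its naive UMIs, 51.0% were in cluster 18 (46.5 CPM, 13.4% positive cells), 21.8% in cluster 6 (6.19 CPM) and 16.9% in cluster 4 (6.84 CPM). In cluster 6 its ratio was 10.9 (8.66 to 13.8), and in cluster 4 it was 9.88 (7.57 to 13.1). Its level per UMI was also high in the shallow cells of cluster 25, at 147 CPM in challenged and 60.0 CPM in naive cells, but these rest on 33 challenged and 7 naive UMIs.

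The loci were not high in the same clusters throughout. SPEXI_LOCUS6460 was above 100 CPM in the challenged cells of clusters 7, 8, 13, 16, 22, 25 and 26, and in the last of these it rested on 12 UMIs. SPEXI_LOCUS12275 had 32.3 CPM in cluster 22 and 147 CPM in cluster 25, but few UMIs in clusters 7, 8, 13, 16 and 26. It had 4 UMIs in the 757 challenged cells of cluster 8, 5 UMIs in the 1219 of cluster 7 3 UMIs in the 639 of cluster 13 and 1 UMI in the 96 of cluster 26. In the 420 challenged cells of cluster 16, of a median depth of only 1943.5 UMIs, it had 0, which allows cells with a UMI up to a share of 0.714% and does not limit the cells that express it. In the PPO-rich cluster 5 its 39 challenged UMIs came from only 5 cells.

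Cluster 18 went the other way for SPEXI_LOCUS12275, with 2 UMIs in 222 challenged cells against 187 UMIs in 254 naive cells, of which 34 were positive. SPEXI_LOCUS12278 also had fewer UMIs there, 5 in challenged against 34 in naive cells, while SPEXI_LOCUS6460 had 70 in challenged and 78 in naive cells. This direction depended on the clustering. At a resolution of 0.4 the 34 positive naive cells fell in a larger cluster together with only 13 of the 222 challenged cells, and there SPEXI_LOCUS12275 had 70.1 CPM in challenged and 19.5 CPM in naive cells, a ratio of 3.58 (3.09 to 4.17).

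Clusters 4, 6 and 18 were therefore also summed, a grouping made after their levels had been seen. They were the clusters with the most naive UMIs of every small PGRP locus. Such a choice can by itself lower the ratio inside the group and raise the ratio outside it, so these ratios are a description only. They made up 12.8% of challenged and 13.8% of naive cells, and held 89.7% of the challenged and 89.6% of the naive UMIs of SPEXI_LOCUS12275. Its ratio was 4.90 (4.35 to 5.53) inside them and 4.35 (3.06 to 6.33) in all other clusters, where it had 199 challenged and 38 naive UMIs. The share of its UMIs in the summed clusters was thus nearly equal between the libraries, although within them cluster 6 led in challenged and cluster 18 in naive cells.

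SPEXI_LOCUS6460 showed the opposite picture. The same clusters held 19.3% of its challenged and 69.2% of its naive UMIs. Inside them it had 42.8 CPM in challenged and 14.1 CPM in naive cells, a ratio of 3.02 (2.69 to 3.41), and in all other clusters 75.4 CPM in challenged and 2.97 CPM in naive cells, a ratio of 25.4 (21.7 to 29.8). The other clusters were not the same mixture in both libraries, with 639 challenged and 0 naive cells in cluster 13, 1219 and 162 in cluster 7, and 420 and 71 in cluster 16. The median ratio over the 20 clusters compared above was 7.11.

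SPEXI_LOCUS12278 lay between them. The summed clusters held 66.4% of its challenged and 81.8% of its naive UMIs, with a ratio of 3.11 (2.56 to 3.80) inside and 6.34 (4.32 to 9.61) outside. Cluster 13 added 14.5% of its challenged UMIs, at 20.3 CPM. Cluster 22, where hemicentin 2-like was 188-fold higher, had 73.9 CPM, or 32 UMIs, in 152 challenged cells. Its 172 naive cells, of a median depth of only 1823 UMIs, had 0 UMIs of SPEXI_LOCUS12278, which allows up to 7.30 CPM. SPEXI_LOCUS3847 was thinly spread, with at most 32 UMIs in any challenged cluster (cluster 6) and at most 20 in any naive cluster (cluster 4), and none of its 7 cluster ratios had an interval that left out 1.

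**Figure D4:**
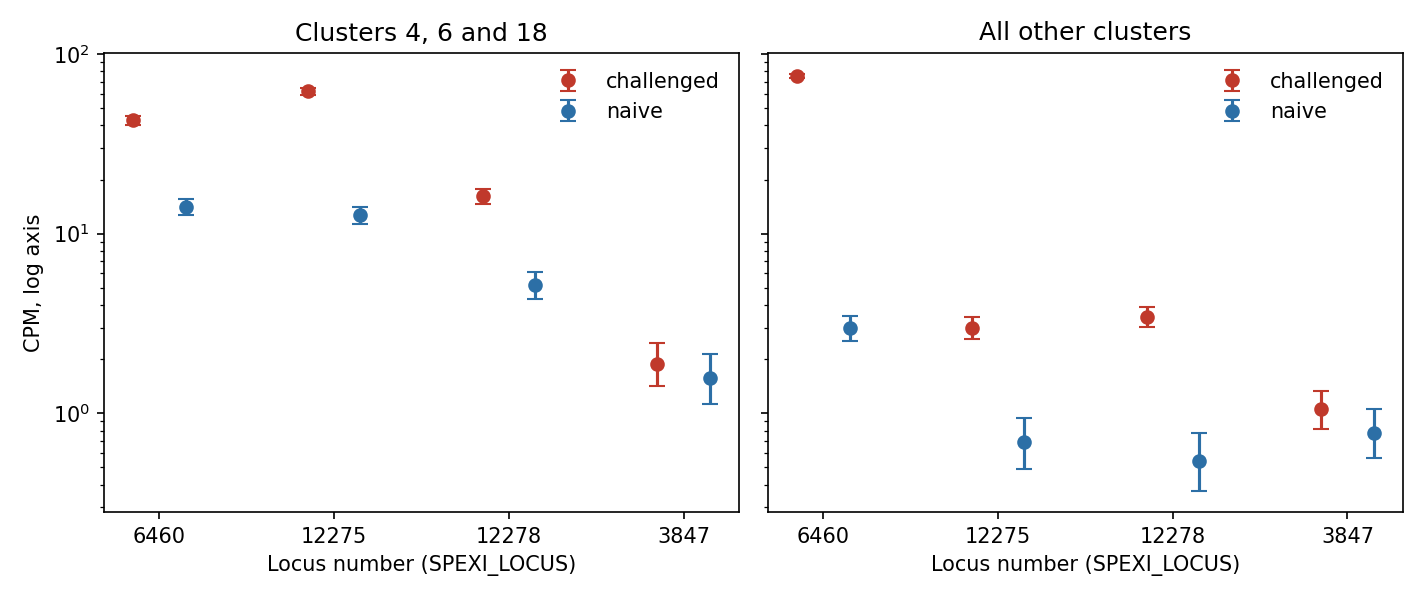
Level in CPM (log axis) of each small PGRP locus in clusters 4, 6 and 18 summed (left) and in all other clusters summed (right), with challenged in red left of naive in blue and bars for the 95% Poisson intervals. The gap between the libraries is 3.02-fold inside and 25.4-fold outside for SPEXI_LOCUS6460, and 4.90-fold inside and 4.35-fold outside for SPEXI_LOCUS12275. The clusters on the left are those with the most naive UMIs of each locus, which can by itself lower the gap inside and raise it outside.

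RNA freed from broken cells can give low levels of a gene in cells that do not express it. PPO1 had a UMI in 94.4% of challenged and 84.6% of naive cells, and the part of free RNA in this was not tested. As a yardstick for low levels of either kind, procathepsin H, hemicentin 2-like and PPO1, which peak in few clusters, had in the median cluster 8.94% to 18.2% of their challenged library level and 6.18% to 15.8% of their naive library level. Against the higher of these values, SPEXI_LOCUS6460 was above it with at least 3 UMIs in 17 of 24 challenged and 15 of 29 naive clusters, and SPEXI_LOCUS12275 in 6 of 24 challenged and 7 of 29 naive clusters. SPEXI_LOCUS12278 was above it in 11 challenged and 8 naive clusters, and SPEXI_LOCUS3847 in 10 challenged and 8 naive clusters. With at least 20 UMIs asked for, the challenged and naive counts were 14 and 6 for SPEXI_LOCUS6460, 4 and 3 for SPEXI_LOCUS12275, 6 and 2 for SPEXI_LOCUS12278 and 2 and 1 for SPEXI_LOCUS3847. Because the yardstick is the median over clusters of PPO1, PPO1 itself lay above it in as many clusters as below it. These counts therefore do not separate expression from free RNA. For SPEXI_LOCUS3847 the challenged yardstick was only 0.236 CPM, so the minimum of 3 UMIs alone set its count. Levels under the yardstick, such as the 2.30 CPM of SPEXI_LOCUS6460 in the challenged cells of cluster 9, are not read as expression.

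Cells positive for several of the loci were few and deep. In the challenged library 2382 cells had UMIs of 1 locus, 396 of 2 loci, 64 of 3 and 5 of all 4, and in the naive library the numbers were 527, 64, 7 and 0. Cells with 2 loci had a median depth of 19534.5 UMIs in challenged and 15289 UMIs in naive cells. Scrublet called 1.55% of challenged and 2.91% of naive cells as doublets. Among cells positive for SPEXI_LOCUS12275 it called 4.08% in the challenged and 2.61% in the naive library, and among those positive for SPEXI_LOCUS6460 it called 2.43% in the challenged and 2.59% in the naive library.

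SPEXI_LOCUS12275 and SPEXI_LOCUS12278 shared 124 challenged cells, 24.1% of the cells with SPEXI_LOCUS12275 and 27.5% of those with SPEXI_LOCUS12278. Challenged cells without SPEXI_LOCUS12275 had SPEXI_LOCUS12278 in 2.72% of cases. In the naive library the loci shared 18 cells, 15.7% of the cells with SPEXI_LOCUS12275, against 0.788% of the cells without it. Depth and cluster moved with this overlap, and within challenged cells of cluster 6 alone the shares were 28.4% (23.1 to 34.2%) with and 13.2% (10.1 to 16.8%) without SPEXI_LOCUS12275, at median depths of 28898 and 23431 UMIs. In challenged cells of cluster 4 the intervals overlapped, at 25.4% (18.3 to 33.5%) with and 17.5% (14.4 to 20.9%) without, at median depths of 12814 and 6116 UMIs. At 1000 UMIs per cell the loci shared 3 challenged cells. These were 3.23% (0.670 to 9.14%) of the cells with SPEXI_LOCUS12275, against 0.528% (0.403 to 0.679%) of those without.

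SPEXI_LOCUS6460 and SPEXI_LOCUS12275 shared 195 challenged cells, 8.46% of the cells with SPEXI_LOCUS6460 and 37.9% of those with SPEXI_LOCUS12275, and 20 naive cells. Within challenged cells of cluster 6 SPEXI_LOCUS12275 was in 49.8% (43.2 to 56.4%) of cells with and 34.1% (29.8 to 38.7%) of cells without SPEXI_LOCUS6460, and in cluster 4 in 28.7% (22.7 to 35.4%) with and 16.1% (12.95 to 19.7%) without, the positive cells being deeper in both clusters. In naive cells of cluster 6 it was in 0 of 39 cells with and 3.97% of cells without SPEXI_LOCUS6460, at median depths of 18078 and 18349 UMIs. In naive cells of cluster 4 the shares were 5.63% with and 2.62% without. The intervals overlapped in both naive clusters. At 1000 UMIs per cell the overlap was 4 challenged cells, too few to show a difference, with SPEXI_LOCUS12275 in 0.679% (0.185 to 1.73%) of challenged cells with SPEXI_LOCUS6460 and 0.819% of those without. SPEXI_LOCUS6460 and SPEXI_LOCUS12278 still overlapped at that depth, in 11 challenged cells, 1.87% (0.936 to 3.32%) of the cells with SPEXI_LOCUS6460 against 0.478% (0.358 to 0.627%) of those without. Within challenged clusters at full depth the intervals overlapped in cluster 13 (12.9% with, 10.5% without) and cluster 7 (3.30% and 1.56%). They were apart in cluster 4 (27.8% and 15.3%) and cluster 6 (28.1% and 14.7%), and cells with SPEXI_LOCUS6460 were deeper in each. The part of shared clusters in the overlap at 1000 UMIs was not tested.

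The neighbours of the small PGRPs in the immune pathways were counted in the same way. Of 26 genes of the Toll and IMD pathways and of antimicrobial peptides, 23 had at least 30 UMIs, and of these 5 were more than 2-fold higher and 1 was more than 2-fold lower in the challenged library, beside 2.48% higher and 10.9% lower over all genes. In the Toll pathway, which carries the signal of some small PGRPs in Drosophila, 0 of the 10 genes with at least 30 UMIs were past 2-fold higher, a count that a background of 2.48% would also give, with ratios of 0.981 for the adaptor MyD88 and 1.19 for the kinase Pelle. A scarce locus of spätzle, the Toll ligand, SPEXI_LOCUS9628, was the gene past 2-fold lower, with 57 challenged and 119 naive UMIs. Most spätzle UMIs came from SPEXI_LOCUS12010, with 41028 challenged and 28865 naive UMIs, a ratio of 1.22. The spätzle locus SPEXI_LOCUS4403 had a ratio of 0.764, and SPEXI_LOCUS4651 had only 8 challenged and 19 naive UMIs.

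In the IMD pathway 3 of 10 genes were past 2-fold higher. They were the large PGRP loci SPEXI_LOCUS6461 (19.4-fold), which the study named PGRP-LB-like, and SPEXI_LOCUS6462 (5.52-fold), and the transcription factor Relish (2.04-fold). SPEXI_LOCUS6462 rested on 122 challenged and 19 naive UMIs, and its ratio was 2.35 with each cell weighted equally. The third large PGRP locus, SPEXI_LOCUS12582, had a ratio of 1.31. Of the antimicrobial peptides, cecropin B was 7.12-fold and cecropin A1 4.66-fold higher, and spodoptericin had a ratio of 0.787. SPEXI_LOCUS6461 was far more abundant than any small PGRP, at 1902 CPM in challenged and 98.0 CPM in naive cells, and its locus number is next to that of SPEXI_LOCUS6460, although numbers alone give no position.

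In challenged cells thinned to 1000 UMIs, SPEXI_LOCUS6460 was found more often the more PGRP-LB a cell held. It was in 3.11% of the 7751 cells with 0 UMIs of SPEXI_LOCUS6461, in 9.06% of the 850 cells with 5 to 9 UMIs, in 16.0% of the 699 cells with 10 to 19 UMIs and in 26.7% (21.5 to 32.5%) of the 262 cells with 20 or more. SPEXI_LOCUS12275 showed no such rise, with 0.942% of the cells with 0 UMIs, 0 of the 850 cells with 5 to 9 UMIs (which allows up to 0.353%) and 0 of the 262 cells with 20 or more (which allows up to 1.15%).

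In the thinned naive cells SPEXI_LOCUS6460 was in 0.557% of the 11489 cells with 0 UMIs of SPEXI_LOCUS6461 and in 1.42% (0.461 to 3.27%) of the 353 cells with 1. By UMIs of cecropin B, challenged cells had SPEXI_LOCUS6460 in 1.44% of the 2216 cells with 0 UMIs and in 11.2% of the 3185 cells with 20 or more, and SPEXI_LOCUS12275 in 0.226% and 1.85% of the same cells.

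The relation of SPEXI_LOCUS6460 to PGRP-LB was also seen within some clusters and not in others. With the thinned challenged cells of each cluster split at their median of SPEXI_LOCUS6461, a split chosen after the levels had been seen, the share of cells with SPEXI_LOCUS6460 was 13.5% above and 5.31% at or below the median in cluster 7, and 24.2% above and 8.37% at or below in cluster 16. In cluster 8 the shares were 9.68% (3.63 to 19.9%) above and 18.1% (15.3 to 21.2%) at or below. The median was 5 UMIs in cluster 7, 10 in cluster 13 and 13 in cluster 16. In the other clusters, cluster 8 among them, it was 0, so the split there set cells with a UMI against cells without. Over 13 clusters the share was higher above the median in 11, and in 3 of them the intervals did not overlap. In clusters 0, 1 and 9 the share above rested on 1 positive cell each.

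The genes also did not keep a fixed ratio to each other. The challenged cells of cluster 22 had 76.7 UMIs of SPEXI_LOCUS6460 per 100 UMIs of SPEXI_LOCUS6461, and those of cluster 16 had 1.32. In the cells with most SPEXI_LOCUS6460 per UMI, those of cluster 8, there were 62.8 per 100, against 1.71 per 100 in cluster 7.

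**Figure D5:**
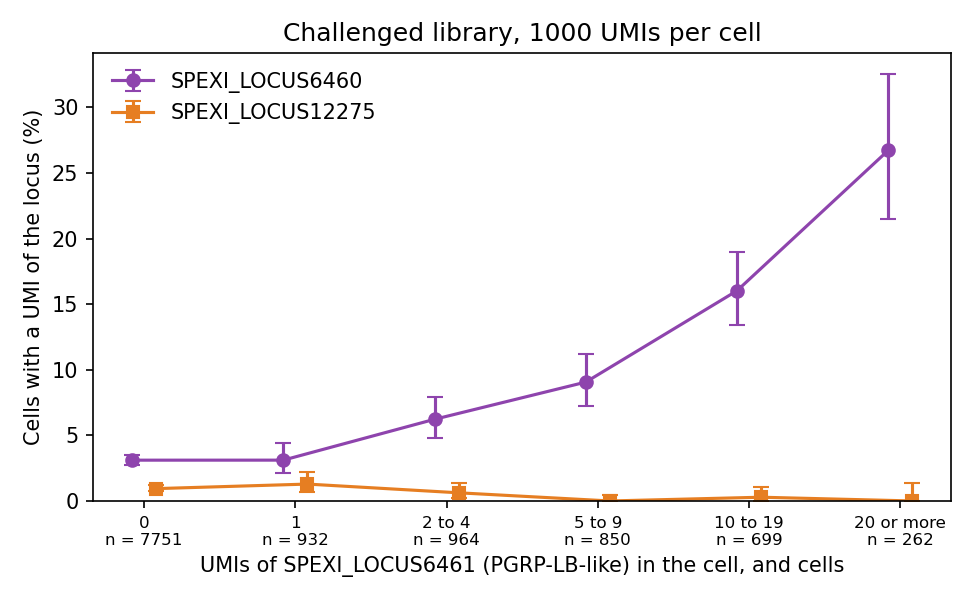
Share of challenged cells (%) with at least 1 UMI of SPEXI_LOCUS6460 or SPEXI_LOCUS12275 by the number of UMIs of SPEXI_LOCUS6461, the PGRP-LB-like locus, in cells thinned to 1000 UMIs, with the number of cells under each group and bars for the 95% Clopper-Pearson intervals. The share for SPEXI_LOCUS6460 is 3.11% in cells without PGRP-LB and 26.7% in cells with 20 or more UMIs, while SPEXI_LOCUS12275 is at most 1.29%.

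Over the 24 clusters with at least 50 challenged cells, the genes with the pattern most like each locus were found by Pearson's r of log2(CPM + 1), given as a description because clusters of 1 library share depth and free RNA. For SPEXI_LOCUS6460 they were SPEXI_LOCUS4621 (r = 0.78) and SPEXI_LOCUS11518 (r = 0.74), and cecropin B (r = 0.56) and SPEXI_LOCUS6461 (r = 0.48) ranked lower. For SPEXI_LOCUS12275 they were SPEXI_LOCUS1764 (r = 0.94) and SPEXI_LOCUS9661 (r = 0.89), and its r with SPEXI_LOCUS6460 was 0.28 and with SPEXI_LOCUS6461 -0.36. For SPEXI_LOCUS12278 they were SPEXI_LOCUS8400 (r = 0.86) and SPEXI_LOCUS1790 (r = 0.85), and its r with SPEXI_LOCUS12275 was 0.67. The genes closest to SPEXI_LOCUS12275 had ratios of 1.00 and 1.02 between the libraries, whereas that locus itself had 4.53.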

How the data were processed

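Hemocytes were partitioned on a 10x Genomics Chromium controller with 3′ chemistry, and the authors deposited raw UMI counts per gene and called cell, made with Cell Ranger 7.2.0 per the file headers. The genome build was not given in the sources used here. The submitters' processing notes also name STAR 2.7.10a, Bowtie2 2.4.5 and Seurat 4.0. Genes are numbered loci, and the small PGRPs were taken from the study's Toll pathway diagram. The members and gene lists were chosen with earlier results of these data known.

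Cells with 200 to 6000 genes were kept, which left out 6 challenged and 26 naive cells. Depth per library is the sum of its kept UMIs. The study's mitochondrial filter was not applied. Doublets were called with Scrublet in scanpy 1.11.5, for 194 challenged cells (1.55%, with 10.0% expected) and 432 naive cells (2.91%, with 11.9% expected), and were kept, so that doublets remain. Clusters came from Seurat 5.3.0 in R 4.3.3 on pooled cells (5000 variable genes, 30 components, 20 neighbours, resolution 0.8), with 7 PGRP loci and 27 genes that differed between the libraries across clusters left out. Levels have exact Poisson, ratios exact conditional and shares exact Clopper-Pearson intervals. An upper limit beside a share of 0 is 3 counts. UMIs and cells of 1 library are not replicates, so intervals and limits cover counting error only.

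The genes named are the 4 loci, pathway genes a result turns on, and, for loci with at least 300 UMIs, the 2 genes most alike over clusters, among genes with at least 100 challenged UMIs. Alternatives covered cell filters, doublets, depth, scaling (including the TMM factor of edgeR 4.0.16), cluster settings and count minimums. On simulated data for 10041 genes of the challenged over naive comparison, with 200 changed, 95.4% of intervals held the true ratio, which checks the computation only. Computations ran in Python 3.11.15, with scipy 1.17.1 for intervals, pandas 2.3.3 and numpy 2.4.6 for counts, and matplotlib 3.10.9 for plots.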

Additional observations from a re-analysis of the deposited data

How the results depend on the processing

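Under 10 alternatives, the log2 ratio of challenged over naive was between 2.50 and 3.43 for SPEXI_LOCUS6460, between 2.12 and 2.32 for SPEXI_LOCUS12275, between 1.40 and 2.04 for SPEXI_LOCUS12278 and between -2.08 and 0.79 for SPEXI_LOCUS3847. Values outside the main counting interval were, for SPEXI_LOCUS6460 (3.33), 2.50 with naive cluster weights, 3.15 with each cell weighted equally and 2.83 as the median over clusters. Such values were 1.40 as the median over clusters for SPEXI_LOCUS12278 (1.83), and for SPEXI_LOCUS3847 (0.33) they were -0.27 with each cell weighted equally, 0.79 as the median over clusters and -2.08 at 1000 UMIs. Genes more than 2-fold lower numbered 1096, against 2070 with at least 1 UMI in each library and 489 with at least 100 UMIs, and pathway genes more than 2-fold lower numbered 1, against 3 with each cell weighted equally. No paired analysis was possible because each group is 1 library and no replicate could be left out. The alternatives added after seeing the data were the fate of cluster 18, the grouping of clusters 4, 6 and 18, a minimum of 20 UMIs for a leading cluster, overlaps within clusters and the split at the median of PGRP-LB. In the cluster that took the naive cells of cluster 18, the log2 ratio was -5.71 for SPEXI_LOCUS12275 and -1.93 for SPEXI_LOCUS12278, but 1.71 and 1.56 with all variable genes and 1.84 and 1.59 at a resolution of 0.4. That cluster then held only 13 of the 222 challenged cells of cluster 18. At a resolution of 1.2 it was -4.78 for SPEXI_LOCUS12275 and -1.74 for SPEXI_LOCUS12278. Depth limits SPEXI_LOCUS3847 most, with 4 challenged and 17 naive positive cells at 1000 UMIs.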
